A study of Mus musculus with 8 samples.

Results

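TRIM proteins are a large family of ubiquitin ligases, most of which carry a RING finger, B-box domains and a coiled coil, often followed by a domain that binds the target. The RING finger passes ubiquitin to partner proteins, and in antiviral defence these partners include RNA sensors, their adaptors and incoming viral capsids. Many family members are known to be switched on by interferon. PML belongs to the same family and is the scaffold of the PML nuclear body, a structure that gathers SUMO-modified proteins. The set described here holds 10 genes of 24972 in the expression table: Trim21, Trim25, Trim30a, Trim30d, Trim34a, Trim14, Trim12c, Trim26, Trim56 and Pml. They were chosen by name as TRIM ligases and PML of antiviral defence, with earlier results of these data known. All 10 passed the filter on low values, a mean of at least 10 normalized counts over the libraries. Trim14, with a mean of 14.1, passed only through the Tfam+/- libraries described below, since its mean over the other 6 was 9.54. Counts and medians over the set are therefore given for the other 9 members, and Trim14 is reported apart.

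Transcript levels came from RNA sequencing of untreated primary mouse embryonic fibroblasts, cultures grown from embryos at embryonic day 14, kept in medium with 10% serum and passaged 2 times. There were 8 libraries of 4 genotypes with 2 each: wild type (WT), lacking 1 allele of Tfam (Tfam+/-), lacking Zbp1 (Zbp1-/-), and carrying both changes (Tfam+/-Zbp1-/-). Tfam encodes the protein that packages mitochondrial DNA, and Zbp1 encodes a cytosolic sensor of nucleic acids. The comparisons ask how transcript levels in cells short of Tfam depend on Zbp1. Values are the authors' normalized counts, and library totals ran from 16752835 to 18303036. No label says if the libraries of a genotype came from different embryos, so p-values measure only the spread between these libraries.

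The targeted genes were examined first. Tfam had normalized counts of 629 and 610 (WT), 278 and 365 (Tfam+/-), 675 and 471 (Zbp1-/-) and 424 and 375 (Tfam+/-Zbp1-/-). All 4 libraries labelled Tfam+/- lay below the other 4. Zbp1 had normalized counts of 7.34 and 3.19 for WT, 64.6 and 69.8 for Tfam+/-, 3.79 and 1.03 for Zbp1-/-, and 0.862 and 2.69 for Tfam+/-Zbp1-/-. Zbp1 was thus already low in WT, where its values overlapped those of Zbp1-/-. None of the 10 fibroblast markers was at 0. Their summed level was 413668 and 413589 (WT), 440483 and 361251 (Tfam+/-), 503121 and 584645 (Zbp1-/-) and 463100 and 456490 (Tfam+/-Zbp1-/-). Across all genes tested, Tfam+/- replicate 1 and Zbp1-/- replicate 2 deviated from their partners in the same direction. The correlation of deviations between replicates with the same number in these 2 genotypes was -0.7, and results are therefore also given with a term shared by these 2 libraries and without them.

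The promoters of the members were read next, since several of these genes are textbook targets of interferon. Interferon-activated factors are known to bind the stimulated response element, whose core is a pair of GAAA words with any 2 bases between them, and STAT dimers bind TTCNNNGAA. RefSeq promoters (GRCm38.p6, 250 bases before to 50 after the start) were matched for 9 of the 10 members, and Trim14 had no entry. This spaced GAAA pair, searched on both strands with overlapping matches counted, was found in 6 of these 9 genes, namely Trim21, Trim34a, Trim12c, Trim30a, Trim30d and Trim26. It was present in 3.44% of all 32851 promoters of that length, in 3.71% of the 10384 tested genes with a promoter, and in 3 of 48 other TRIM family genes (Trim12a, Trim2 and Trim5). These letters were not in the windows of Trim25, Trim56 and Pml. TTCNNNGAA was in the window of 0 of the 9 genes and of 8.17% of the tested genes with a promoter. The 9 genes are too few to tell 0 from that share. The stretches of 30 bases around the matches are shown to let the sites be compared between members and with Trim12a, a close relative of Trim12c. Each is written 5′ to 3′ on the gene's own strand, with the match in capitals (the GAAA pair, or the TTTC pair that is its reverse complement).
Trim21: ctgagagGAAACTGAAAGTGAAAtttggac
Trim34a: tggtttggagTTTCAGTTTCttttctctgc
Trim12c: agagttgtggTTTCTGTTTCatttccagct
Trim12a: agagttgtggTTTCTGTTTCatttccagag
Trim30a: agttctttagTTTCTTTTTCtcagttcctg
Trim30a, inner start: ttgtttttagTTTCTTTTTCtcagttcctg
Trim30d: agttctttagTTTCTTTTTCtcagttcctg
Trim26: cttccgaTTTCACTTTCCTTTTCtcgggcc

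In GRCm38.p6 the Trim21 stretch lies at chr7:102565447-102565476 (minus strand), Trim34a at chr7:104244457-104244486 (plus), Trim12c at chr7:104353359-104353388 (minus) and Trim12a at chr7:104315466-104315495 (minus). The stretch of Trim30a lies at chr7:104465210-104465239, that of its inner start at chr7:104446104-104446133 and that of Trim30d at chr7:104507871-104507900 (all minus), while Trim26 has its own at chr17:36836979-36837008 (plus). Trim21 and Trim26 each held a pair of overlapping matches, and the other stretches held 1 match. The match began 29 bases before the start in Trim12c, 36 before it in Trim30a and 41 before it in Trim30d. In Trim26 the pair began 160 and 154 bases before the start. In Trim21 it began at transcribed bases 14 and 20, and in Trim34a at base 11. Counted from the RefSeq start, it began at base 11 in Trim12a and at base 3 at the inner start of Trim30a. The 30 bases from these last 2 starts were not found in GENCODE transcripts of their genes, unlike those of the other starts. The 30 bases were identical in Trim30a and Trim30d (30 of 30) and differed at 2 positions between Trim12a and Trim12c. The inner start of Trim30a shared 26 of 30 bases with the outer one. A match of letters is a description and not evidence that a factor binds there.

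**Figure D1:**
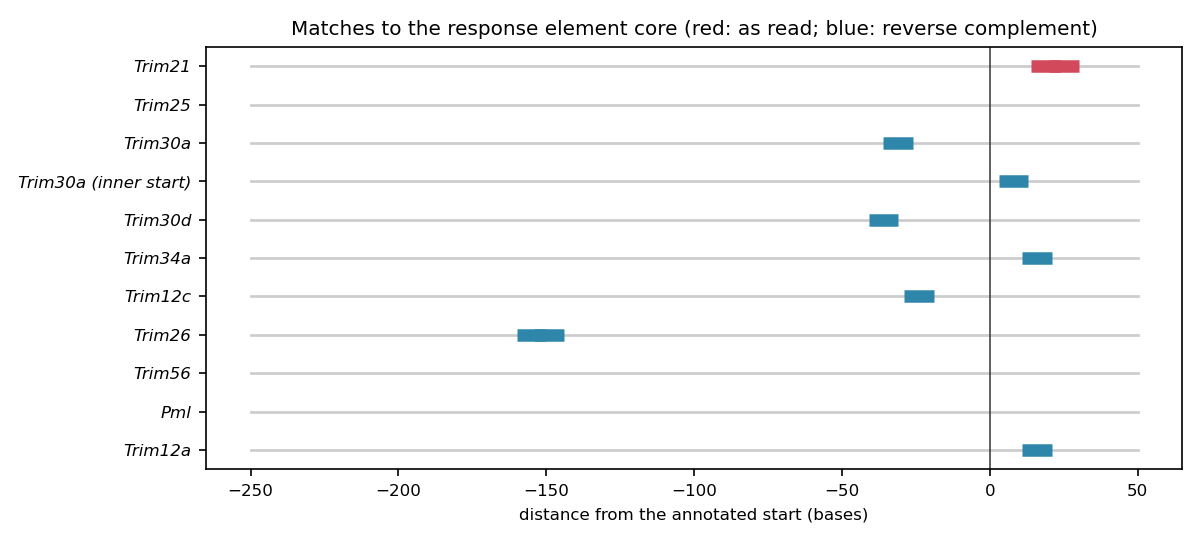
Positions of matches to the spaced GAAA pair (either strand) in the RefSeq promoter windows of the members and Trim12a, with distance from the annotated start in bases on the horizontal axis and 1 line per promoter. In the 6 member genes with a match it begins between 160 bases before the start and transcribed base 20, and the windows of Trim25, Trim56 and Pml carry none.

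To show how far the likeness of Trim30a and Trim30d extends, 90 bases that end 11 bases before each start are printed, again with the match in capitals.
Trim30a: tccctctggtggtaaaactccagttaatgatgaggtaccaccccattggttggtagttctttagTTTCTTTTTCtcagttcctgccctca
Trim30d: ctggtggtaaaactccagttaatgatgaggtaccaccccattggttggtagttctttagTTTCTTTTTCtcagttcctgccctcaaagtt

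These stretches lie at chr7:104465204-104465293 and chr7:104507860-104507949, minus strand. Aligned, they had 85 identical and 0 mismatched bases, with 10 positions opposite gaps at the ends where the annotated starts are offset.

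The 9 members other than Trim14 were higher in both Tfam+/- libraries than in both WT libraries, and 4 passed the test: Trim30a, Trim30d, Trim25 and Trim21. Changes are differences of log2(normalized count + 1), tested with limma on the 13267 genes with a mean of at least 10, and calls were made below an adjusted p of 0.05 (Benjamini-Hochberg). Of all genes tested 0.565% were called higher in this comparison, and 23.3% had both Tfam+/- libraries above both WT libraries. The median log2 change of the 9 members was 0.90, against -0.01 over all genes tested. Beyond WT, 7 of the 9 members (all but Trim26 and Trim56) had both Tfam+/- libraries above all 6 other libraries, an order found in 4.73% of genes tested. Trim14 had both orders too, which the filter favoured. In a culture of mixed cells, a change in the share of a cell type and a change in RNA per cell cannot be told apart.

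**Figure D2:**
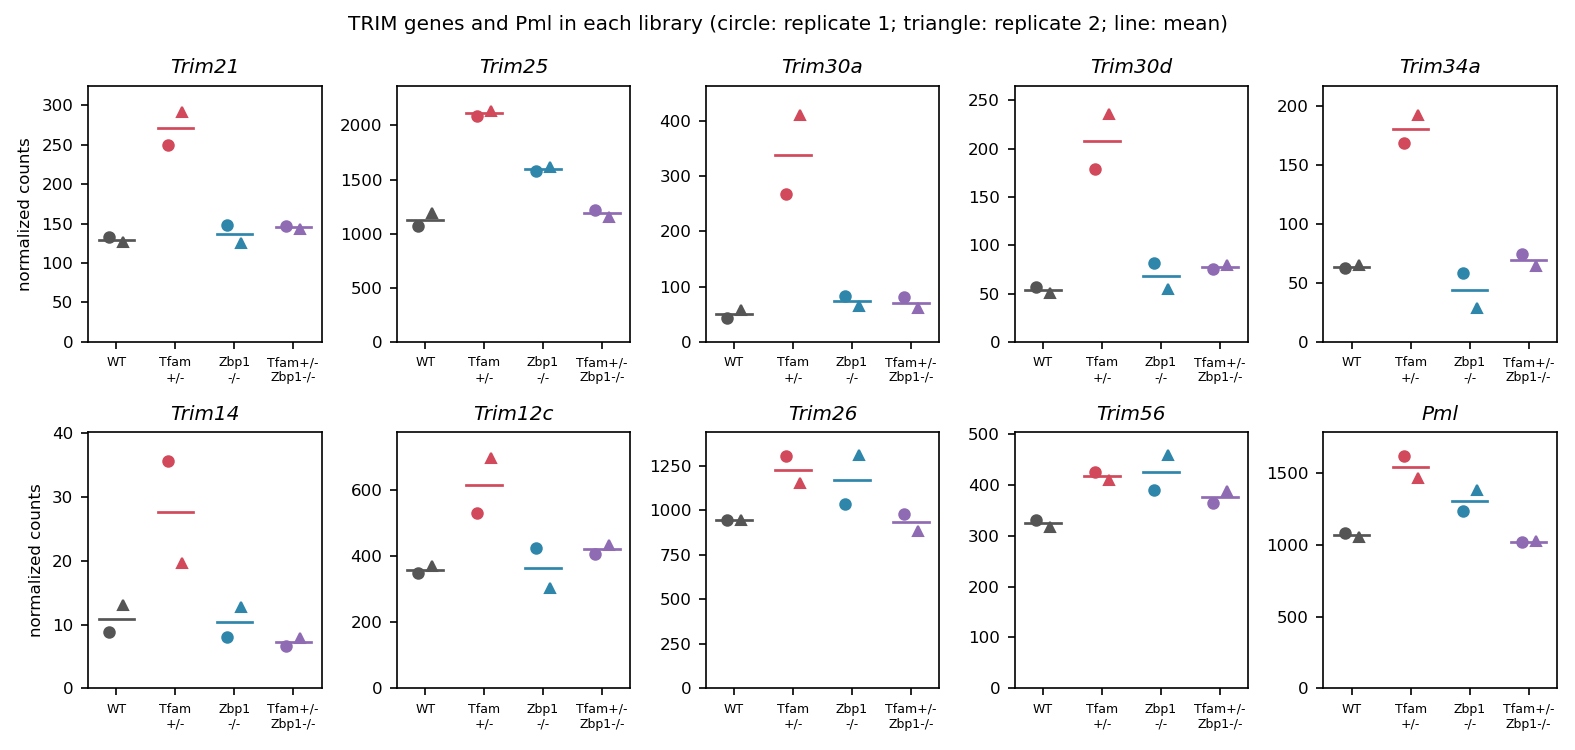
Normalized counts of each member in the 8 libraries, 1 panel per gene with its own linear axis from 0, points for libraries and bars for the mean of each genotype (n = 2). The Tfam+/- points stand above all others in 8 panels, and in the panels of Trim26 and Trim56 they overlap those of Zbp1-/-.

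The largest differences were in the TRIM30 and TRIM34 genes of chromosome 7. These genes lie in a cluster of 10 TRIM genes within 289 kb (chr7:104218795-104507853), of which 4 are members. Trim30a (chr7:104409025-104465193, minus strand) encodes a mouse protein known to restrain Toll-like receptor signalling by promoting loss of the adaptors TAB2 and TAB3. It had normalized counts of 43.5 and 58.2 in the WT libraries, 268 and 411 in those of Tfam+/-, 82.7 and 65.4 in those of Zbp1-/-, and 81.5 and 60.7 in those of Tfam+/-Zbp1-/-. The Tfam+/- libraries stood far above the other 6, which lay between 43.5 and 82.7. The mean was 340 ± 100 in Tfam+/- and 50.9 ± 10.4 in WT (SD, n = 2), and the log2 change was 2.70 ± 0.28 (SE), a fold of 6.48 (limma, adjusted p = 0.0118). Trim30a fell by 2.22 ± 0.28 on the log2 scale in Tfam+/-Zbp1-/- against Tfam+/- (limma, adjusted p = 0.0076).

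Trim30d (chr7:104470014-104507853, minus strand) is the adjacent paralog. Its normalized counts were 57.1 and 50.1 (WT), 179 and 236 (Tfam+/-), 81.2 and 54.9 (Zbp1-/-) and 75.6 and 79.3 (Tfam+/-Zbp1-/-). The order of libraries was again Tfam+/- above the rest, with overlap between WT and Zbp1-/-. Trim30d rose by 1.92 ± 0.24 on the log2 scale between WT and Tfam+/- (limma, adjusted p = 0.0210), and fell by 1.40 ± 0.24 in Tfam+/-Zbp1-/- against Tfam+/- (limma, adjusted p = 0.0208). Of the 50-base stretches of Trim30a transcripts, 5.98% also occur in Trim30d transcripts, and 6.39% of those of Trim30d occur in Trim30a. How the authors' counting treated such reads is not stated.

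Trim34a (chr7:104244448-104262244, plus strand) is related to the primate restriction factor TRIM34. It had normalized counts of 62.4 and 65.5 for WT, 169 and 193 for Tfam+/-, 58.8 and 28.6 for Zbp1-/-, and 74.6 and 64.2 for Tfam+/-Zbp1-/-. Both Tfam+/- libraries exceeded the rest, and Zbp1-/- replicate 2 was the lowest of the 8. The log2 change was 1.48 ± 0.32 for Tfam+/- against WT (limma, adjusted p = 0.162) and -1.37 ± 0.32 for Tfam+/-Zbp1-/- against Tfam+/- (limma, adjusted p = 0.0601), and neither passed. The rise passed when Zbp1-/- replicate 1 or replicate 2 was left out (limma, adjusted p = 0.0242 and 0.0229), and so did the fall (0.0098 and 0.0092). The fall also passed in a fit of only the genotypes compared (limma, adjusted p = 0.0390) and, at -1.51, when scaled by a trimmed mean of M-values (limma, adjusted p = 0.0417). Trim34a values are uncertain, since 59.7% of its 50-base stretches also occur in another gene. These include 39.8% in Trim34b, which had 0 to 18 normalized counts, and 20.2% in Gm47248, which covers 23.5% of the exon bases of Trim34a on the opposite strand and has no values here.

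Trim12c (chr7:104338754-104353358, minus strand) belongs to the mouse group related to TRIM5, a factor that binds retroviral capsids. Its normalized counts were 348 and 370 in the WT libraries, 530 and 696 in those of Tfam+/-, 424 and 302 in those of Zbp1-/-, and 407 and 434 in those of Tfam+/-Zbp1-/-. The Tfam+/- values were the highest, yet the replicates of Tfam+/- and of Zbp1-/- were wide apart. The log2 change of 0.76 ± 0.20 in Tfam+/- against WT did not pass (limma, adjusted p = 0.280), nor did -0.53 ± 0.20 in Tfam+/-Zbp1-/- against Tfam+/- (limma, adjusted p = 0.199). Of its 50-base stretches 24.2% occur in Trim5 and 6.38% in Trim12a.

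Among the cluster's other genes, Trim12a (chr7:104299893-104315558) was called as well. It had normalized counts of 113 and 111 (WT), 262 and 256 (Tfam+/-), 168 and 158 (Zbp1-/-) and 129 and 150 (Tfam+/-Zbp1-/-). The log2 change was 1.20 ± 0.13 for Tfam+/- against WT (limma, adjusted p = 0.0162) and -0.89 ± 0.13 for Tfam+/-Zbp1-/- against Tfam+/- (limma, adjusted p = 0.0132). The first call was lost without any 1 of the WT, Tfam+/- or Tfam+/-Zbp1-/- libraries (1.18 to 1.22), and the other without either WT library, Tfam+/- replicate 1 or either Tfam+/-Zbp1-/- library (-1.0 to -0.79). By contrast Trim6 and Trim5, at 10.2 to 22.6 and 7.84 to 27.8 normalized counts over the 8 libraries, were not called in any comparison. Trim30b was listed at 0 in all 8 libraries.

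Trim21 (chr7:102557920-102565482, minus strand), outside the cluster, encodes the cytosolic antibody receptor that sends antibody-coated virus particles for degradation. Its normalized counts were 133 and 126 for WT, 250 and 292 for Tfam+/-, 148 and 125 for Zbp1-/-, and 147 and 143 for Tfam+/-Zbp1-/-. The 6 libraries other than Tfam+/- lay between 125 and 148. Trim21 rose by 1.05 ± 0.15 on the log2 scale between WT and Tfam+/-, a fold of 2.07 (limma, adjusted p = 0.0394), and fell by 0.89 ± 0.15 in Tfam+/-Zbp1-/- against Tfam+/- (limma, adjusted p = 0.0200). The rise was not called when genes were tested without the filter (limma, adjusted p = 0.0608).

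Trim25 (chr11:88999403-89020294, plus strand) encodes a ligase known for promoting RIG-I signalling and for attaching ISG15. It had normalized counts of 1067 and 1194 in the WT libraries, 2087 and 2136 in those of Tfam+/-, 1577 and 1612 in those of Zbp1-/-, and 1221 and 1153 in those of Tfam+/-Zbp1-/-. Here Zbp1-/- formed a separate level between WT and Tfam+/-, with replicates close together, while WT and Tfam+/-Zbp1-/- overlapped. Trim25 rose by 0.90 ± 0.10 on the log2 scale between WT and Tfam+/-, a fold of 1.87 (limma, adjusted p = 0.0170), and fell by 0.83 ± 0.10 in Tfam+/-Zbp1-/- against Tfam+/- (limma, adjusted p = 0.0072).

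A list of genes of RIG-I and MAVS ubiquitination, in which Trim25 acts, had 19 genes tested. In Tfam+/- against WT 2 of the 19 were called, both higher, beside 0.565% of all genes called higher, and the list's median log2 change was 0.04. The called genes were Ddx58, which encodes RIG-I (1.33 ± 0.15, limma, adjusted p = 0.0163), and Nlrc5, a regulator of MHC class I genes (1.76 ± 0.16, limma, adjusted p = 0.0072). Ddx58 had normalized counts of 810 and 773 (WT), 1780 and 2242 (Tfam+/-), 993 and 833 (Zbp1-/-) and 1091 and 1017 (Tfam+/-Zbp1-/-). Against Tfam+/-, 3 of the 19 were called in Tfam+/-Zbp1-/-, all lower, beside 2.32% of all genes called lower: Ddx58 (-0.92), Nlrc5 (-1.19) and Ifih1, the gene of the sensor MDA5 (-1.41). The calls of Ddx58 were lost without either WT or either Tfam+/-Zbp1-/- library (1.17 to 1.5 and -1.09 to -0.76). Those of Nlrc5 were lost without either WT library (1.69 to 1.82) and without either Tfam+/-Zbp1-/- library (-1.32 to -1.07). Ifih1 lost its call without either WT library, Tfam+/- replicate 2 or either Tfam+/-Zbp1-/- library (-1.71 to -1.10), and also with no filter (limma, adjusted p = 0.0575) or no trend (0.0529). Mavs itself had a log2 change of 0.19 ± 0.14 in Tfam+/- against WT, which did not pass (limma, adjusted p = 0.566).

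Trim14 (chr4:46505072-46536150, minus strand) encodes an adaptor of MAVS that lacks a RING finger. It was the lowest member, with normalized counts of 8.79 and 13.1 for WT, 35.7 and 19.7 for Tfam+/-, 8.08 and 12.8 for Zbp1-/-, and 6.63 and 7.85 for Tfam+/-Zbp1-/-. Both Tfam+/- values were the highest, but they differed from each other by more than the other 6 libraries did among themselves. Neither the change in Tfam+/- against WT (1.23 ± 0.41, limma, adjusted p = 0.443) nor that in Tfam+/-Zbp1-/- against Tfam+/- (-1.74 ± 0.41, limma, adjusted p = 0.0609) passed. The fall passed with no trend (limma, adjusted p = 0.0398) and, at -2.16, without Tfam+/- replicate 2 (limma, adjusted p = 0.0489). Trim14 shares 1356 exonic bases (31.3% of its exons) with Nans on the opposite strand, and whether counting used strand is not given. Nans, at 1147 to 1502 normalized counts, had a log2 change of 0.17 ± 0.16 in Tfam+/- against WT (limma, adjusted p = 0.606).

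Trim26 (chr17:36837123-36859398, plus strand) encodes a ligase reported to act on the transcription factor IRF3. Its normalized counts were 945 and 947 in the WT libraries, 1304 and 1150 in those of Tfam+/-, 1032 and 1308 in those of Zbp1-/-, and 979 and 884 in those of Tfam+/-Zbp1-/-. Tfam+/- and Zbp1-/- overlapped, and both lay above WT. The log2 change was 0.37 ± 0.14 for Tfam+/- against WT (limma, adjusted p = 0.529) and -0.40 ± 0.14 for Tfam+/-Zbp1-/- against Tfam+/- (limma, adjusted p = 0.186).

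Trim56 (chr5:137111286-137116462, minus strand) encodes a ligase linked to STING and Toll-like receptor signalling. It had normalized counts of 332 and 318 (WT), 425 and 410 (Tfam+/-), 391 and 459 (Zbp1-/-) and 364 and 389 (Tfam+/-Zbp1-/-). This was the member whose mean was highest in Zbp1-/- (425 ± 48.0) rather than in Tfam+/- (418 ± 10.7, SD, n = 2), although these groups overlapped. Its log2 change was 0.36 ± 0.12 for Tfam+/- against WT (limma, adjusted p = 0.460) and -0.15 ± 0.12 for Tfam+/-Zbp1-/- against Tfam+/- (limma, adjusted p = 0.500), the smallest of the 10 members in each comparison.

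Pml (chr9:58217179-58249796, minus strand) had normalized counts of 1084 and 1056 for WT, 1620 and 1464 for Tfam+/-, 1235 and 1381 for Zbp1-/-, and 1016 and 1023 for Tfam+/-Zbp1-/-. The 4 genotypes did not overlap, with Tfam+/- highest, then Zbp1-/-, WT and Tfam+/-Zbp1-/-. In Tfam+/- against WT the log2 change of 0.53 ± 0.11 did not pass (limma, adjusted p = 0.140). Pml fell by 0.59 ± 0.11 in Tfam+/-Zbp1-/- against Tfam+/- and passed (limma, adjusted p = 0.0267).

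Of a list of PML nuclear body and SUMO genes 27 were tested, and their median log2 change in Tfam+/- against WT was -0.05. The 1 called gene was Sp100, which encodes a resident protein of the nuclear body, where 0.565% of all genes were called higher. Sp100 had normalized counts of 22.7 and 18.9 in the WT libraries, 108 and 84.3 in those of Tfam+/-, 26.3 and 34.0 in those of Zbp1-/-, and 15.2 and 23.9 in those of Tfam+/-Zbp1-/-. It rose by 2.15 ± 0.29 on the log2 scale between WT and Tfam+/- (limma, adjusted p = 0.0337), and fell by 2.27 ± 0.29 in Tfam+/-Zbp1-/- against Tfam+/- (limma, adjusted p = 0.0081). The rise was not called with no filter (limma, adjusted p = 0.0504) or without any 1 of the WT, Tfam+/- or Tfam+/-Zbp1-/- libraries (1.97 to 2.33), nor the fall without either Tfam+/-Zbp1-/- library (-2.58 to -1.95). The SUMO protease gene Senp7 moved the other way in Tfam+/-Zbp1-/- against Tfam+/- (0.61 ± 0.12, limma, adjusted p = 0.0354), a call lost when values were scaled with a trimmed mean of M-values (0.46, limma, adjusted p = 0.0856) or without any 1 of the WT, Tfam+/- or Tfam+/-Zbp1-/- libraries (0.59 to 0.62).

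**Figure D3:**
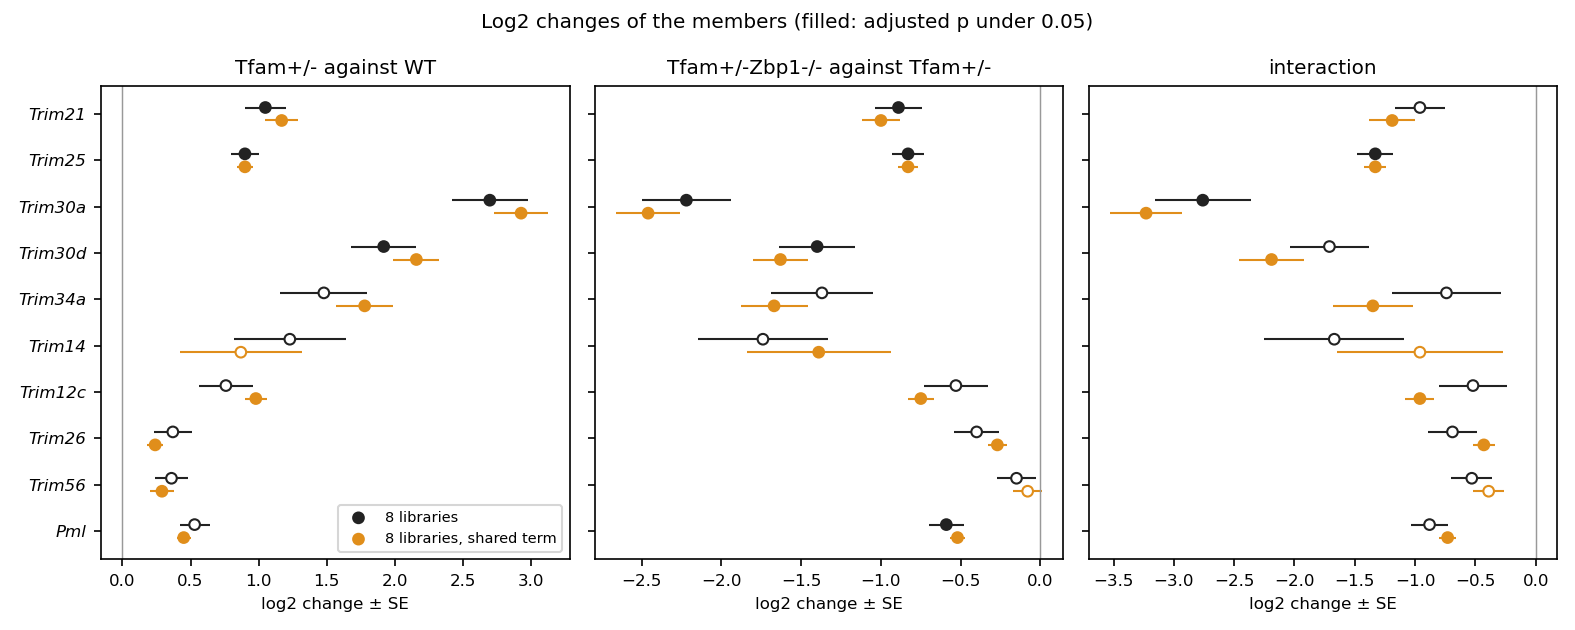
Differences of log2(normalized count + 1) for the 10 members in Tfam+/- against WT, in Tfam+/-Zbp1-/- against Tfam+/- and in the interaction (the difference between the changes with and without Zbp1), with SE as bars and filled points for genes called by limma. Black points are the fit of 8 libraries and orange points the same fit with the term shared by Tfam+/- replicate 1 and Zbp1-/- replicate 2. All points lie above 0 in the first panel, the black ones from 0.36 to 2.70, and below 0 in the others, the black ones from -2.22 to -0.15 and from -2.76 to -0.52.

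The order of the members by mean level per kilobase of exon differed between WT and Tfam+/-. In WT it ran from Trim25 (196 normalized counts per kb), Pml (192), Trim26 (138) and Trim12c (96.1) to Trim21 (35.0), Trim56 (35.0), Trim34a (24.7), Trim30d (14.3), Trim30a (12.4) and Trim14 (2.52). In Tfam+/- Trim25 (367), Pml (277), Trim26 (179) and Trim12c (164) were still the highest. By the mean, Trim30a (82.6) now stood above Trim21 (72.9), Trim34a (69.7), Trim30d (55.2) and Trim56 (45.0), with Trim14 (6.38) lowest. The place of Trim30a above Trim21 rested on Tfam+/- replicate 2. Trim30a had 268 and 411 normalized counts on 4111 exon bases, and Trim21 had 250 and 292 on 3714. Replicate 1 alone would put Trim30a below Trim21.

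The other TRIM family genes were read from a list of 62 names, of which 34 were tested. In Tfam+/- against WT 17 were higher and 17 lower, their median log2 change was -0.00, and Trim12a was the 1 called, beside 0.565% of all genes called higher. Their range was -0.94 to 1.20, against 0.36 to 2.70 in the 9 members. There were 2 calls in Tfam+/-Zbp1-/- against Tfam+/-, Trim12a lower and Cmya5, a muscle-expressed relative, higher (1.19 ± 0.17, limma, adjusted p = 0.0107), beside 2.32% of all genes called lower and 3.32% called higher. Trim66 was called in Zbp1-/- against WT (0.92 ± 0.11, limma, adjusted p = 0.0226), with 181 and 177 normalized counts in WT and 341 and 336 in Zbp1-/-. Cmya5 was not called without either Tfam+/-Zbp1-/- library (1.07 to 1.31), nor Trim66 without any 1 of the WT, Zbp1-/- or Tfam+/-Zbp1-/- libraries (0.90 to 0.93).

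**Figure D4:**
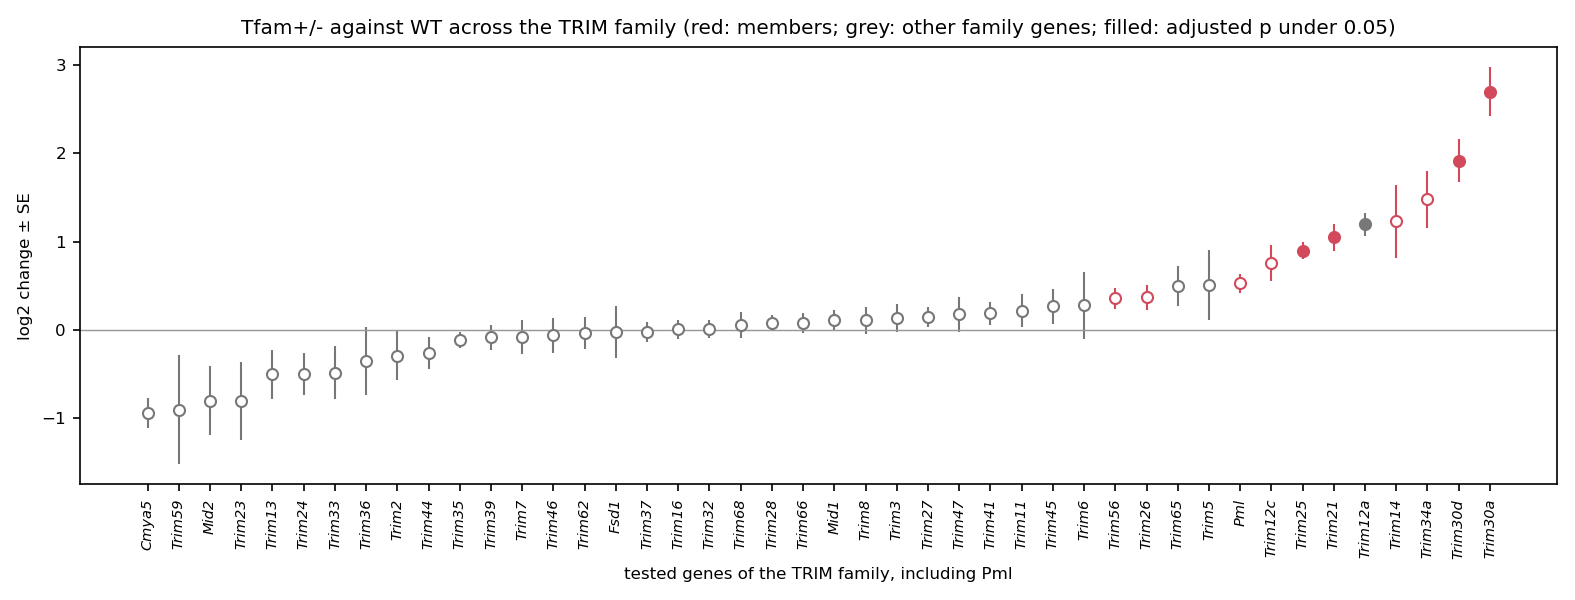
Log2 changes of all tested TRIM family genes, Pml included, in Tfam+/- against WT, with the 10 members and the 34 other genes marked apart. The other genes spread around 0 with a median of -0.00, and Trim12a at 1.20 is the highest of them.

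When Zbp1 was also absent, 5 of the 9 members fell: Trim30a, Trim30d, Trim25, Trim21 and Pml passed in Tfam+/-Zbp1-/- against Tfam+/-, beside 2.32% of all genes called lower in this comparison. All 9 had both Tfam+/-Zbp1-/- libraries below both Tfam+/- libraries, as did Trim14, an order found in 13.5% of genes tested. The median log2 change of the 9 was -0.83, and that of all genes tested was 0.14. This comparison shares its Tfam+/- libraries with Tfam+/- against WT, so the sizes above are given side by side and are not independent of each other. Scaling with a trimmed mean of M-values moved the median of all genes to -0.00 and that of the 9 members to -0.98, and 6 members were then called, Trim34a being added. The same scaling moved the median of all genes from 0.11 to -0.00 in Zbp1-/- against WT and from 0.12 to 0.00 in Tfam+/-Zbp1-/- against WT. It turned the split of all called genes in Tfam+/-Zbp1-/- against Tfam+/- from 440 higher and 308 lower to 307 higher and 441 lower. In Zbp1-/- against WT the split went from 119 higher and 22 lower to 60 and 23, and in Tfam+/-Zbp1-/- against WT from 119 and 64 to 82 and 88.

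Several calls were lost when 1 library was left out, a step that also lowers the residual degrees of freedom from 4 to 3. The rise of Trim25 stayed at 0.90 without either Tfam+/-Zbp1-/- library, which this comparison does not use, yet its call was lost. With 1 library left out, the rise of Trim30a in Tfam+/- against WT ranged from 2.39 to 3.00 and lost its call without WT replicate 1 or WT replicate 2. Those of Trim21 (0.94 to 1.16), Trim25 (0.82 to 0.98) and Trim30d (1.73 to 2.12) lost theirs without any 1 of the WT, Tfam+/- or Tfam+/-Zbp1-/- libraries. The falls of Trim25 in Tfam+/-Zbp1-/- against Tfam+/- (-0.87 to -0.79) and of Trim30a (-2.53 to -1.92) lost the call without either Tfam+/-Zbp1-/- library. Trim21 (-1.0 to -0.78) and Trim30d (-1.59 to -1.20) lost it without either WT library, Tfam+/- replicate 2 or either Tfam+/-Zbp1-/- library, and Pml (-0.67 to -0.52) without the same libraries but with Tfam+/- replicate 1 in place of replicate 2. In a fit of only the genotypes compared the 4 rises were not called (limma, adjusted p = 0.0511 for Trim30a, 0.0644 for Trim30d, 0.143 for Trim25 and 0.181 for Trim21), nor were the falls of Trim21 (0.0771) and Pml (0.117).

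With the term shared by Tfam+/- replicate 1 and Zbp1-/- replicate 2, the 9 members other than Trim14 were called higher in Tfam+/- against WT, beside 7.39% of all genes. Trim14 was not called (0.87 ± 0.45, limma, adjusted p = 0.22). The term gave 8 calls among these 9 in Tfam+/-Zbp1-/- against Tfam+/-, all lower, beside 10.2% of all genes, the exception being Trim56 at -0.08, and Trim14 was called lower as well. Without these 2 libraries the same counts of 9 and 8 were found, beside 6.98% of all genes called higher and 9.87% called lower. In the fit without them Tfam+/- and Zbp1-/- have 1 library each, which is assumed to vary like the other genotypes. The prior degrees of freedom were 2.77 in the fit of 8 libraries, 15.09 with the shared term and 14.57 without the 2 libraries.

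The interaction asks whether the difference made by Tfam heterozygosity was the same with and without Zbp1, and is negative where it was lower in Zbp1-/- cells. It was below 0 for the 9 members other than Trim14, with a median of -0.88 against 0.00 over all genes tested, and 2 members passed, Trim25 (-1.33 ± 0.15, limma, adjusted p = 0.0207) and Trim30a (-2.76 ± 0.40, limma, adjusted p = 0.0457). Of all genes tested 0.445% were called lower in this term. Pml (-0.88 ± 0.15, limma, adjusted p = 0.0721), Trim30d (-1.71 ± 0.33, limma, adjusted p = 0.0928) and Trim21 (-0.96 ± 0.21, limma, adjusted p = 0.119) did not pass. Trim34a (-0.74), Trim26, Trim56 and Trim12c (-0.52) did not pass either, nor did Trim14 at -1.67. With 1 library left out, Trim25 ranged from -1.41 to -1.25 and kept its call without Tfam+/- replicate 2 or Zbp1-/- replicate 1, and lost it without any 1 of the other 6. Trim30a ranged from -3.07 to -2.45 and lost its call in all 8 fits, as it did with no filter (limma, adjusted p = 0.0627) or no trend (0.0502). With the shared term 8 members were called lower, beside 8.43% of all genes, Trim14 and Trim56 being the exceptions. That term leaves the interaction to be estimated from the other 6 libraries. Without the 2 libraries 9 were called, beside 9.14%.

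Among cells without Zbp1, the members' changes with Tfam heterozygosity ran from -0.45 (Trim14) to 0.74 (Trim34a), and the 9 without Trim14 had a median of -0.06 against 0.02 over all genes tested. There limma called 0 of 10 in Tfam+/-Zbp1-/- against Zbp1-/-, while 0.415% of all genes were called. An unadjusted p under 0.05 (limma) was found for 2 members and for 1626 of the 13267 genes tested. The log2 change was -0.06 ± 0.28 for Trim30a, 0.21 ± 0.24 for Trim30d, 0.74 ± 0.32 for Trim34a, -0.43 ± 0.10 for Trim25 and -0.36 ± 0.11 for Pml. In 4 of the 9 members (Trim25, Pml, Trim26 and Trim56), and in Trim14, both Tfam+/-Zbp1-/- libraries were below both Zbp1-/- libraries, an order found in 23.3% of genes tested. With the shared term 3 members (Trim25, Pml and Trim26) were called lower, beside 11.0% of all genes, and in 6 libraries 2, beside 10.8%.

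**Figure D5:**
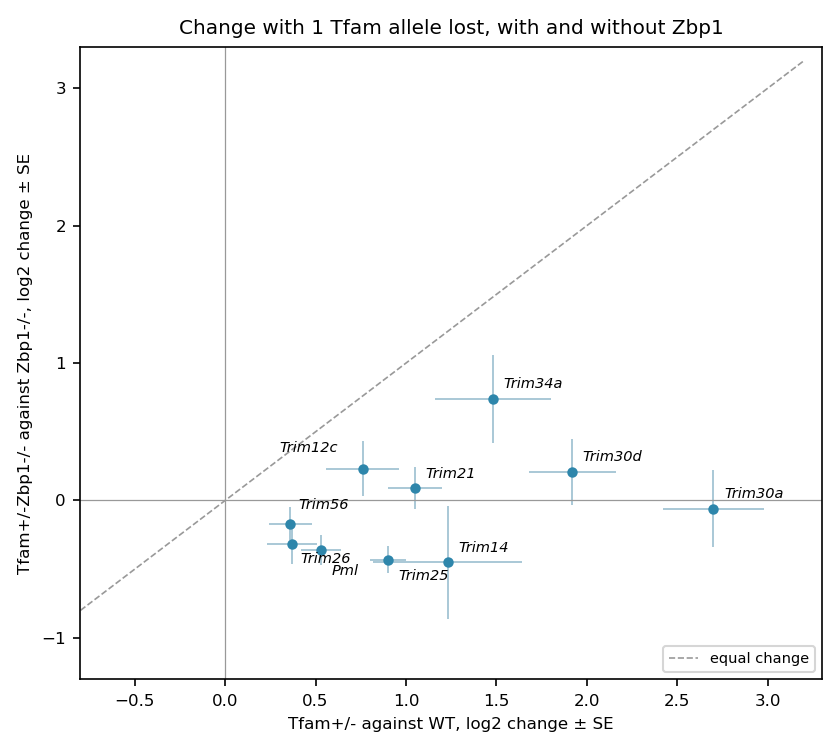
Log2 change of each member in Tfam+/- against WT (horizontal axis) and in Tfam+/-Zbp1-/- against Zbp1-/- (vertical axis), with SE as bars and the line of equal change. All 10 members lie below the line, and their vertical values run from -0.45 to 0.74. The 2 comparisons share no library.

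Loss of Zbp1 alone gave 0 called members in Zbp1-/- against WT, where limma called 1.06% of all genes. An unadjusted p under 0.05 (limma) was found for 3 members and for 2619 of the 13267 genes tested. Trim25 had the smallest adjusted p, with a log2 change of 0.50 ± 0.10 (limma, adjusted p = 0.0866). Trim56 at 0.38 (limma, adjusted p = 0.184) and Pml at 0.29 (limma, adjusted p = 0.224) followed. Scaled by a trimmed mean of M-values, Trim25 was at 0.39 (limma, adjusted p = 0.185). There 1 member and 2029 of all genes had an unadjusted p under 0.05 (limma). With the shared term 7 were called higher, beside 28.5% of all genes, and in 6 libraries 6, beside 27.2%. Trim25 had 0.50 ± 0.06 with the shared term (limma, adjusted p = 1.8e-06). Members also gave 0 calls of 10 in Tfam+/-Zbp1-/- against WT, where 1.38% of all genes were called. An unadjusted p under 0.05 (limma) was found for 0 members and for 1674 of the 13267 genes tested. The 10 members ranged there from -0.52 (Trim14) to 0.53 (Trim30d), and the median without Trim14 was 0.16 against 0.12 over all genes. With the shared term 4 (Trim12c, Trim30a, Trim30d and Trim56) were called higher, beside 35.3% of all genes, and in 6 libraries 4, beside 37.1%, shares close to their own.

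Markers of leukocytes differed between the genotypes in part along with the members. Their summed level over 12 genes was 4831 and 4766 (WT), 6104 and 5547 (Tfam+/-), 3083 and 2834 (Zbp1-/-) and 2475 and 2449 (Tfam+/-Zbp1-/-). None of the 12 was at 0. In Tfam+/- against WT 0 were called (limma), 11 were higher and the median was 0.41. An unadjusted p under 0.05 (limma) was found for 6 of them and for 1159 of the 13267 genes tested. Against Tfam+/-, 9 were called lower in Tfam+/-Zbp1-/-, beside 2.32% of all genes, with a median of -1.22. Against WT, 4 of the 12 in Tfam+/-Zbp1-/- were called lower, beside 0.482% of all genes, with a median of -0.81, whereas the 9 members had 0 calls and a median of 0.16. Summed epithelial markers were 493 and 326 (Tfam+/-), 187 and 186 (Tfam+/-Zbp1-/-), 261 and 284 (WT) and 291 and 380 (Zbp1-/-). Summed muscle markers were 1758 and 1238 (Tfam+/-), 600 and 612 (Tfam+/-Zbp1-/-), 1050 and 1085 (WT) and 657 and 917 (Zbp1-/-). Summed endothelial markers were 396 and 460 (Tfam+/-), 337 and 318 (Tfam+/-Zbp1-/-), 338 and 356 (WT) and 310 and 273 (Zbp1-/-), with Cldn5 at 0 in every library. The part of these other cell types in the members' differences was not tested. Of the 10 fibroblast markers 3 were called higher in Tfam+/-Zbp1-/- against Tfam+/- (limma), beside 3.32% of all genes. In Zbp1-/- against WT all 10 were higher and 1 was called, beside 1.06% of all genes called in either direction. Scaled by a trimmed mean of M-values, 1 was called higher and 1 lower in the first comparison, and 0 in the second.

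For the 3 members with the largest changes, the tested genes with the most similar pattern were found by the root mean square difference of log2 values, each centred on the WT mean of its gene, over the 8 libraries. Those nearest to Trim30a were Parp14 (0.26), Ifit3 (0.28) and Gbp3 (0.29), where the median over all genes was 1.42. Trim30d was closest to the immunity-related GTPase Irgm2 (0.12), the guanylate-binding protein gene Gbp7 (0.14) and Parp9 (0.17), against a median of 1.04. For Trim34a they were Bcl2a1b (0.25), Gm12185 (0.32) and Ifih1 (0.33), against a median of 0.92. The distances for Trim34a were larger than those for Trim30d. The nearest genes lie below the median by selection, so the median gives only the scale of the distances.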

How the data were processed

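Reads were aligned with STAR to mm10 RefSeq genes in RNAseq Alignment V2.0.0 and compared in RNA-seq Differential Expression V1.0.0, both of BaseSpace, per the series' design text. The submitters' processing notes list STAR 2.6.1a and Salmon. The deposited file holds the authors' normalized counts: a non-negative signal, not whole, whose scaling is not stated. No count model was run for that reason.

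Values were tested as log2(normalized count + 1), which understates the change of low genes. All 8 libraries entered 1 fit of the 4 genotypes by limma 3.58.1 in R 4.3.3 (lmFit, eBayes with trend), with 4 residual and 2.77 prior degrees of freedom. Genes with a mean of at least 10 were tested, 13267 in all, and p-values were two-sided and adjusted by Benjamini-Hochberg over all of them. The smallest p of an exact permutation test with 2 libraries a group is 0.333. Differences of each gene are given with the SE of limma, and groups with the SD of 2 libraries, whose number limits the precision.

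The alternatives were a pseudocount of 5, no filter, scaling with a trimmed mean of M-values (30% of ratios and 5% of means trimmed), no trend, fits of single pairs of genotypes, a replicate block, the shared term, 6 libraries, and leaving out each library. Named genes were the members, Tfam and Zbp1, the called genes of 3 lists (other TRIM family, PML nuclear body and SUMO, RIG-I and MAVS ubiquitination), tested cluster neighbours and the 3 genes of nearest pattern. Mavs, Nans, Trim2, Trim30b, Trim34b, Gm47248 and the marker Cldn5 were named outside that rule. Members, lists and alternatives were chosen with earlier results of these data known. Gene coordinates and promoters are from RefSeq (GRCm38.p6, the assembly also called mm10), 1-based. Stretches of 50 bases shared between genes were counted in GENCODE transcripts of GRCm38. Python 3.11.15 was used for the summaries.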

Additional observations from a re-analysis of the deposited data

Results flagged for a closer look

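The change with Tfam heterozygosity differed between cells with and without Zbp1, by limma's interaction term, for 5 of the genes described. All were called lower, as were 0.445% of all genes tested. Called were 2 of the 10 members, and 1 of the 34 other TRIM family genes tested. Of the PML nuclear body and SUMO genes 1 of 27 was called, and of the RIG-I and MAVS ubiquitination genes 1 of 19. Among the members the called genes were Trim25, at -1.33 ± 0.15 (limma, adjusted p = 0.0207), and Trim30a, at -2.76 ± 0.40 (limma, adjusted p = 0.0457). Among the listed genes they were Trim12a, at -1.43 ± 0.19 (limma, adjusted p = 0.0353), Nlrc5, at -2.10 ± 0.23 (limma, adjusted p = 0.0204), and Sp100, at -2.77 ± 0.41 (limma, adjusted p = 0.0486). Trim12a, Sp100 and Trim30a each lost the call when any 1 of the 8 libraries was left out, over ranges of -1.54 to -1.32, -3.09 to -2.46 and -3.07 to -2.45, and also when genes were tested with no filter (limma, adjusted p = 0.0592, 0.0758 and 0.0627). Trim25 and Nlrc5 kept it without Tfam+/- replicate 2 or Zbp1-/- replicate 1 and lost it without any 1 of the other 6, with ranges of -1.41 to -1.25 and -2.22 to -1.97.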

How the results depend on the processing

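The number of members called depended on the fit. In Tfam+/- against WT it was 4, and became 3 with no filter, 0 in a fit of only the genotypes compared, 9 with the shared term, 9 in 6 libraries, and 0 to 5 with 1 library left out. In Tfam+/-Zbp1-/- against Tfam+/-, Trim14 was called with no trend, with the shared term and in some fits of fewer libraries. Among the other 9 members the number called was 5, also with no trend, and became 6 with the trimmed mean of M-values. It was 8 with the shared term and 4 in a fit of only the genotypes compared, and changed when single libraries were left out. For the interaction it was 2, and became 1 with no filter, 1 with no trend, 8 with the shared term, 9 in 6 libraries and 0 to 1 with 1 library left out. With the shared term it rose from 0 to 7 in Zbp1-/- against WT, beside 28.5% of all genes called higher. It rose to 3 in Tfam+/-Zbp1-/- against Zbp1-/-, beside 11.0% called lower. In Tfam+/-Zbp1-/- against WT it rose to 4, beside 35.3% called higher. There a fit of only the genotypes compared called Trim30d, Trim12c and Trim56, with 14.76 prior degrees of freedom. The share of all genes called was not computed for that fit, nor with no filter, no trend, the replicate block or 1 library left out. Member counts from those fits therefore stand without a background. In fits of only the genotypes compared the calls of Trim12a, Ddx58, Cmya5, Senp7 and Trim66 and the rises of Sp100 and Nlrc5 were lost as well. Where fewer libraries were fitted the residual degrees of freedom fell, and the cause of the other shifts was not tested.

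Replicate numbers do not pair the libraries: the correlation of deviations between same-numbered libraries was -0.7 to 0.06 over the 6 pairs of genotypes. With the replicate block 0 members were called in Tfam+/- against WT, 2 in Tfam+/-Zbp1-/- against Tfam+/- and 0 in the interaction.

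Over the values of single genes under all alternatives, 986 kept direction and side of the threshold, 171 lost the call, 73 gained it and 21 changed sign. The sign changes were in small values. In Zbp1-/- against WT, Trim21 became -0.04 with the trimmed mean of M-values and -0.05 without Zbp1-/- replicate 1, and Trim14 became 0.19 without WT replicate 2 and 0.23 without Zbp1-/- replicate 1. Trim12c became 0.21 with the shared term, 0.24 in 6 libraries, 0.04 without WT replicate 2 and 0.24 without Zbp1-/- replicate 2. In Tfam+/-Zbp1-/- against Zbp1-/-, Trim21 became -0.03 with the shared term, in 6 libraries and without Zbp1-/- replicate 2, and Trim30a 0.10 without Zbp1-/- replicate 1 and 0.15 without Tfam+/-Zbp1-/- replicate 2. Trim30d became -0.03 with the shared term and -0.07 in 6 libraries and without Zbp1-/- replicate 2, and Trim12c -0.01 in both of the latter. In Tfam+/-Zbp1-/- against WT, Trim25 became -0.05 with the trimmed mean of M-values and -0.01 without WT replicate 1, and Trim26 0.05 without Tfam+/-Zbp1-/- replicate 2. With 1 library left out, the same values ranged from -0.37 (Trim14) and -0.25 (Trim12c) in Zbp1-/- against WT, from -0.27 (Trim30a) up to 0.49 (Trim30d) and 0.48 (Trim12c) in Tfam+/-Zbp1-/- against Zbp1-/-, and from -0.10 (Trim26) in Tfam+/-Zbp1-/- against WT. Read depth is not known from these values, and Trim14 is the member nearest the low end.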
